A study of Macaca mulatta with 4 samples.

Results

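The 36 genes described here belong to the innate immune and cytokine response: Toll-like receptor, NF-kB, cytokine and JAK-STAT genes. They were chosen by symbol from a list of 38, and 36 of the 38 had a row among the 30807 genes of the deposited gene list. IL18 and BCL3 had no row under these symbols and are not described. The genes were measured by single-nuclei RNA-sequencing (10x Chromium 3′ kit, version 3.1) in flash-frozen cerebellum of late-gestation rhesus macaque fetuses, 1 library per fetus. The 2 control fetuses, a female and a male at 130 days of gestation, had no intervention, and the 2 LPS fetuses, a female at 131 days and a male at 133 days, were delivered 5 days after 1 mg of lipopolysaccharide (LPS, from E. coli O55:B5) was injected into the amniotic fluid. Intra-amniotic LPS models chorioamnionitis, and the comparison asks whether innate immune genes of the fetal cerebellum differ 5 days later. Both LPS fetuses were older than both controls, and the controls had no injection. Exposure to LPS, gestational age and the injection itself therefore cannot be told apart. Libraries are named by sex and group, and lists of 4 values follow the order female control, male control, female LPS and male LPS.

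LPS, a component of the outer membrane of Gram-negative bacteria, is bound by CD14 and sensed by TLR4, and the adaptor MYD88 and the ubiquitin ligase TRAF6 pass the signal on to NF-kB. NF-kB dimers (RELA, RELB and the products of NFKB1 and NFKB2) switch on cytokines such as TNF, IL1B and IL6, and also the inhibitors NFKBIA and TNFAIP3, which limit the response. They also induce NFKBIZ, an atypical IkB protein of the nucleus that acts with NF-kB on later targets such as IL6. Cytokines of the IL-6 family signal through IL6ST (gp130), which pairs with IL6R, LIFR or OSMR, to JAK2 and STAT3, and SOCS3 is a feedback inhibitor of that route. In brain these signals are classically carried by microglia, by endothelium as the interface with blood, and by astroglia.

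Nuclei were taken as barcodes with at least 500 genes, 32587 in all, and between 6905 and 9256 in each library. Their UMIs (unique molecular identifiers, counted transcripts) summed to between 20117750 and 45582926 per library. The 2 male libraries were shallower than the 2 female libraries, with medians of 1882 and 2308 against 4506 and 4062 UMIs per nucleus, and their median mitochondrial share was 0%, against 0.181 and 0.146%, so sex and depth cannot be told apart. Barcodes shared by a pair of libraries numbered 16 to 22, where random draws from the listed barcodes would share 7.93 to 11.7. The labelled sex was checked on the Y-linked gene UTY in barcodes of at most 100 UMIs, which held 321 and 289 CPM (counts per 1e6 UMIs) in the male libraries and 8.21 and 12.8 CPM in the female ones. Clusters without a class name took 26.5% of the barcodes of the male LPS library and 3.48 to 6.15% of the others. Summed markers of lymphocytes (7 of 8 listed genes found, none at 0 in all libraries) were at 0.895 to 0.940 CPM, and those of neutrophils (6 of 6 found, ELANE at 0) at 3.42, 3.68, 2.95 and 5.13 CPM. Markers of erythroid cells (5 of 5 found) were at 15.7, 16.9, 67.2 and 15.3 CPM. With sex as a block none of the 36 genes was called in any of the 7 comparisons below. The part of the depth and marker differences in the results was not tested.

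Levels were compared across 9 cell classes that had at least 10 nuclei in each library. By the mean CPM over the 4 libraries, 18 of the 36 genes were highest in microglia and macrophages (16.6% of the 22703 genes with a UMI in these classes) and 13 in endothelial cells (13.9%). A further 2 were highest in Bergmann glia (LIFR and TNFAIP3, 7.32% of all genes), 2 in Purkinje cells (IL1RAP and SOD2, 12.7%) and 1 in fibroblasts (VCAM1, 13%). None was highest in the granule lineage (12.2% of all genes), inhibitory interneurons (8.29%), astrocytes (8.74%) or the oligodendrocyte lineage (7.32%). For 10 genes the 4 libraries of the highest class all lay above every library of every other class (8.50% of the 22703 genes). Of the 27 genes with at least 100 UMIs 13 were highest in microglia (19.7% of all genes with that many) and 10 in endothelial cells (16.9%), and the 10 genes set apart were all among these 27 (12.2%). For the other genes the libraries of the highest class overlapped those of another, and some of these places rest on a few UMIs (1 of TNF and 4 of IL6 in microglia, 2 of SOCS3 in endothelium). In numbers of UMIs the picture was different, because 22378 of the nuclei were of the granule lineage. For 24 of the 36 genes there were more UMIs there than in any other class. The share of all genes for which this held was not counted, so the 24 cannot be set against a background. Class levels are descriptions with no test, and members of 1 library share its depth and its free RNA.

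**Figure D1:**
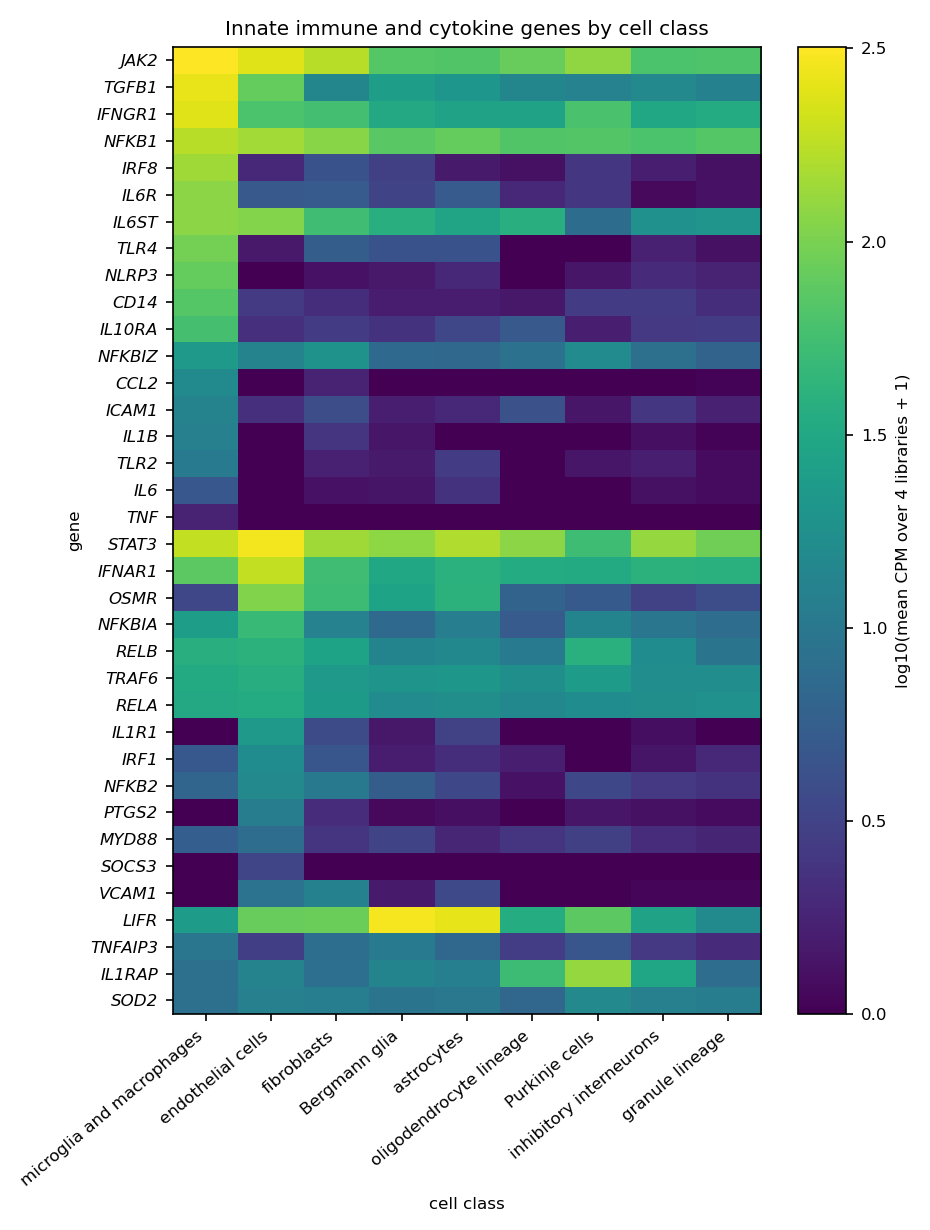
Mean level of the 36 genes (rows) in 9 cell classes (columns), as log10 of the mean CPM over the 4 libraries plus 1. Genes are grouped by the class in which their mean is highest, 18 of them in microglia and macrophages and 13 in endothelial cells.

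The 263 microglia and macrophages (82, 75, 61 and 45 nuclei) were named from 17 of 17 markers raised, and F13A1, a gene of macrophages, was among their leading genes. The gene of the LPS receptor had its highest level in these nuclei. TLR4 was at 94.1 ± 21.5 CPM (SD, n = 4) there and at 4.42 CPM in the next class, fibroblasts. CD14, the co-receptor that hands LPS to TLR4, was at 68.8 ± 51.3 CPM, against 1.78 CPM in interneurons. NLRP3, the sensor of the inflammasome that matures IL-1 beta, was at 81.4 ± 37.2 CPM, against 1.01 CPM in interneurons. For these 3 genes all 4 microglial libraries lay above every other class, and microglia held 51.6, 34.1 and 48.5% of all their UMIs while making up 0.577 to 0.886% of the nuclei of a library. TLR2, the receptor for bacterial lipoproteins, was also highest in microglia, but on 12 UMIs (9, 1, 2 and 0), and its range overlapped that of astrocytes.

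Microglia were likewise the main site of IRF8, a transcription factor that microglia need for their identity, at 140 ± 20.0 CPM against 3.31 CPM in fibroblasts. IL6R, the specific receptor chain for IL-6, was at 117 ± 23.8 CPM against 4.20 CPM in astrocytes. IL10RA, the receptor chain for the anti-inflammatory cytokine IL-10, was at 56.7 ± 19.1 CPM against 4.0 CPM in the oligodendrocyte lineage. IFNGR1, which binds interferon gamma, was at 242 ± 63.0 CPM against 61.3 CPM in endothelial cells, and TGFB1, a cytokine that keeps microglia in their resting state, was at 260 ± 61.4 CPM against 80.3 CPM. These 5 genes also had no overlap with any other class. JAK2 (318 ± 64.1 CPM), NFKB1 (171 ± 80.2 CPM), IL6ST (115 ± 22.9 CPM) and NFKBIZ (21.4 ± 11.6 CPM) were highest in microglia by mean only, since each overlapped the next class, which was endothelial cells at 240 ± 133, 144 ± 11.3 and 108 ± 25.4 CPM for the first 3 and fibroblasts at 18.3 ± 22.8 CPM for NFKBIZ. ICAM1, an adhesion molecule for leukocytes, was at 12.3 ± 5.40 CPM on 13 UMIs.

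Endothelial cells (218 nuclei, 71, 73, 46 and 28 per library, 13 of 13 markers raised, with mural markers raised in the same cluster) had the highest mean of 13 genes. IFNAR1, a chain of the type I interferon receptor, was at 185 ± 41.1 CPM against 74.0 CPM in microglia, and was the 1 gene of the 13 whose endothelial libraries lay above all others. STAT3 was at 290 ± 107 CPM against 188 CPM in microglia, OSMR, the oncostatin M receptor, at 106 ± 79.8 against 50.6 CPM in fibroblasts, and NFKBIA at 48.3 ± 34.0 against 24.4 CPM in microglia. RELB, RELA and TRAF6 were within 1.08-fold of the next class. The IL-1 receptor IL1R1 was at 21.3 CPM in endothelial cells, 2.82 CPM in fibroblasts and 0 UMIs in microglia.

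Of the 13 genes highest in endothelial cells, 10 had their highest endothelial level in the male control library, as did 27.8% of the 3153 genes highest in that class. The mean that placed a gene in this class includes that library, so the count is not independent of how the 13 were chosen. In the male control library IL1R1 had 15 UMIs, against 5, 2 and 0 in the female control, female LPS and male LPS libraries. PTGS2, the inducible cyclooxygenase that makes prostaglandin E2, had 9 endothelial UMIs in the male control library and 0 in each of the other 3. IRF1, a factor induced by interferons, had 13 there and 1, 0 and 0 in the others. These UMIs came from 8 nuclei for IL1R1, 3 for PTGS2 and 10 for IRF1 among the 73 endothelial nuclei of the male control, with 6 UMIs of PTGS2 in 1 nucleus. Both UMIs of SOCS3, the feedback inhibitor of STAT3 signalling, also lay there. STAT3 in endothelial cells was at 225, 448, 264 and 225 CPM, OSMR at 51.8, 224, 63.0 and 85.8 CPM, RELB at 46.1, 79.3, 22.9 and 10.7 CPM and NFKBIA at 46.1, 93.3, 43.0 and 10.7 CPM, so that the male control was the highest library for each. RELA, at 28.8, 46.6, 25.8 and 32.2 CPM, and IFNAR1, at 205, 224, 129 and 182 CPM, were also highest there. The other 3 of the 13 were not: TRAF6 was at 51.8, 42.0, 48.7 and 0 CPM in endothelial cells and MYD88 at 9.60, 9.33, 8.60 and 0 CPM, with no UMI in the male LPS library, and NFKB2 was highest in that library, at 21.4 CPM from 2 UMIs.

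**Figure D2:**
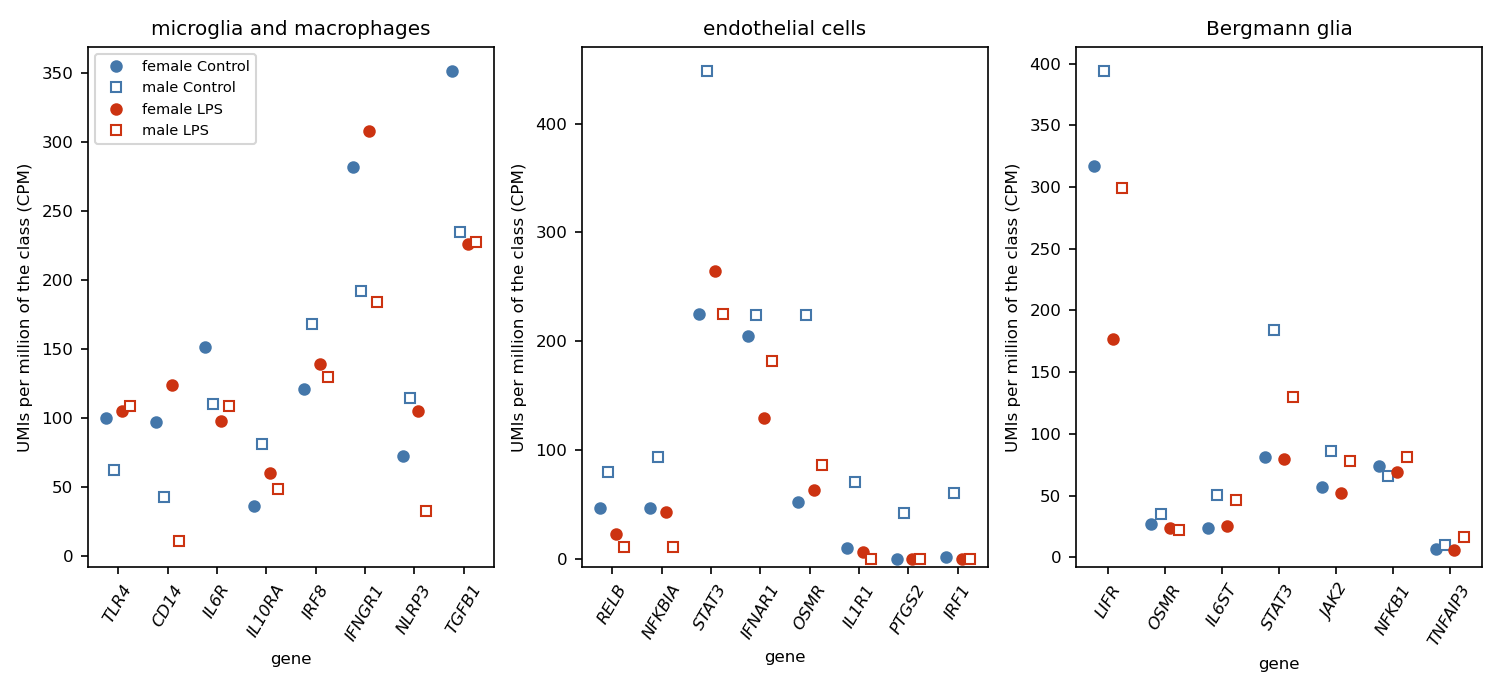
Level (CPM of the class) of selected genes in microglia and macrophages, endothelial cells and Bergmann glia, with 1 point per library (filled circles female, open squares male, blue control, red LPS). In endothelial cells the male control point is the highest for RELB, NFKBIA, STAT3, OSMR, IL1R1, PTGS2 and IRF1, and in Bergmann glia both control points of LIFR are above the female LPS point of 177 CPM.

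The receptor for leukemia inhibitory factor, LIFR, had its highest means in astroglia. LIFR was at 297 ± 89.9 CPM in Bergmann glia, the radial glia of the cerebellar cortex, and at 255 CPM in astrocytes, 2 classes that overlapped each other. Per library it was at 317, 394, 177 and 299 CPM in Bergmann glia. Its mean was 86.6 CPM in fibroblasts, 82.4 CPM in endothelial cells, 73.8 CPM in Purkinje cells and 14.4 CPM in the granule lineage. In the female LPS library fibroblasts were at 153 CPM. The Bergmann glia class joins a cluster of 1615 nuclei with one of 253 whose leading genes include TOP2A, a marker of proliferating cells. OSMR, which shares the IL6ST chain with LIFR, was at 27.2 ± 5.68 CPM in Bergmann glia and 39.9 ± 21.2 CPM in astrocytes. TNFAIP3, an enzyme that ends NF-kB signalling, was at 10.1 ± 4.88 CPM in Bergmann glia and 8.60 ± 7.10 CPM in microglia. IL1RAP, the co-receptor of the IL-1 receptor family, was the gene with a neuronal peak: Purkinje cells were at 144, 115, 142 and 103 CPM, every library above the oligodendrocyte lineage, which came next with a mean of 50.7 CPM, and microglia were at 7.45 CPM. SOD2, the mitochondrial superoxide dismutase, differed little between classes, from 14.1 CPM in Purkinje cells to 5.70 CPM in the oligodendrocyte lineage. VCAM1, an adhesion molecule of activated endothelium, was at 11.7 ± 7.72 CPM in fibroblasts and 8.07 ± 7.19 CPM in endothelial cells.

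TNF, IL1B and IL6, and the feedback inhibitor SOCS3, were near the limit of detection. Over all nuclei, TNF had 1 UMI (1, 0, 0 and 0), and it lay in a microglial nucleus. SOCS3 had 2 UMIs, both in the male control library. A count of 0 allows up to 3 UMIs, which is 0.0658, 0.149, 0.0973 and 0.136 CPM in the 4 libraries. This is a 1-sided limit for counting error only, and the 2-sided exact Poisson 95% interval of a count of 0 reaches 3.69 UMIs. IL1B had 7, 10, 2 and 5 UMIs, with exact Poisson 95% intervals of 2.81 to 14.4, 4.80 to 18.4, 0.242 to 7.22 and 1.62 to 11.7. Of these 24 UMIs 45.8% were in microglia, none of them in the female LPS library. IL6 had 13, 5, 9 and 7 UMIs, each in a nucleus of its own, and 11.8% of them were in microglia. TNF and IL1B were not higher in both LPS libraries than in both control libraries. By CPM IL6 was at 0.285, 0.249, 0.292 and 0.318, so both LPS libraries lay above both controls, but the exact Poisson 95% intervals of these UMI counts, 6.92 to 22.2, 1.62 to 11.7, 4.12 to 17.1 and 2.81 to 14.4, are far wider than that gap.

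CCL2, the chemokine that draws monocytes, had 2, 5, 16 and 1 UMIs, unevenly spread over nuclei. In the female LPS library 12 of the 16 UMIs were in 3 microglial nuclei, 6 of them in 1 nucleus. The male LPS library had none in microglia. The 16 UMIs (interval 9.15 to 26.0) thus came from 7 nuclei of 1 fetus. PTGS2 had 5, 15, 3 and 8 UMIs, IL1R1 11, 33, 8 and 2, VCAM1 22, 29, 19 and 4 and TLR2 28, 7, 21 and 1. Of these 4 genes, PTGS2, IL1R1 and VCAM1 had their highest number in the male control library, and TLR2 was lower in both male libraries than in both female ones.

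The UMIs of each library were next summed over all its nuclei and LPS was compared with control by edgeR's quasi-likelihood test, and a gene was called where the adjusted p was under 0.1 and the log2 fold change beyond 0.25 in either direction. In such sums, fewer nuclei of a class and less RNA per nucleus cannot be told apart. Of the 36 genes 29 passed the filter on low counts, and none was called. None of the 16138 genes tested was called either (0%). At an unadjusted p under 0.05 there were 37 genes (0.229%), and none of the 29 was among them. Without any effect a share of about 0.05 would be expected, here and in the classes below. The shares given all lie under it, so the test was conservative and an absence of calls does not show equal levels. DESeq2 also called none, with 64 genes at an unadjusted p under 0.05 and none of the 29. The 29 log2 fold changes (LPS over control) had a median of -0.15 and ranged from -1.19 for VCAM1 to 0.22 for TLR4 and NFKBIA, and 23 of them were negative, while the median over all tested genes was 0.008 and 51.2% were positive. VCAM1 was highest in fibroblasts, which had 137, 212, 155 and 40 nuclei, and the part of this in its value was not tested. With DESeq2's size factors in edgeR the split of the 29 was the same, 23 negative and 6 positive. Summed over the 36 genes the libraries were at 443, 684, 455 and 528 CPM, with the male control highest. Within females 19 of the 29 were higher in the LPS library (60.2% of all tested genes). Within males 23 were lower in it (58.7%). The part of the male control library in the 23 negative values was not tested. Both LPS libraries lay below both control libraries for 3 of the 29, MYD88, LIFR and OSMR (5.45% of all tested genes), and above them for none (7.15% of all tested genes).

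**Figure D3:**
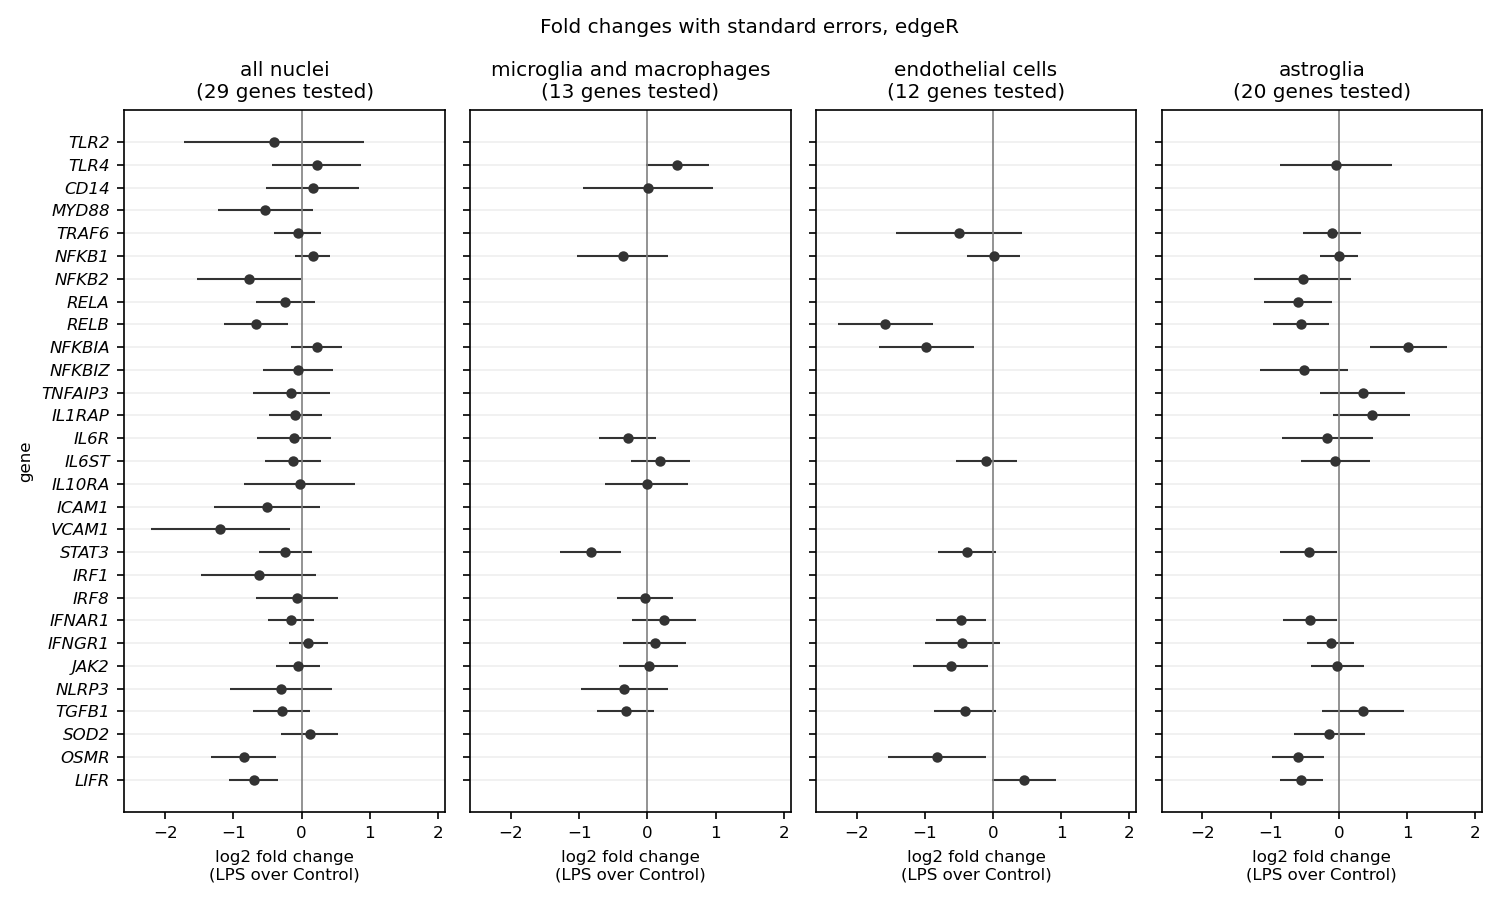
Log2 fold changes of LPS over control from edgeR, with standard errors, for the genes that passed the filter in all nuclei, microglia and macrophages, endothelial cells and astroglia (Bergmann glia and astrocytes). None was called in any panel, and the lowest value is -1.58 for RELB in endothelial cells.

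Among the sensors and adaptors of LPS, TLR4 was at 1.62, 1.19, 1.30 and 2.00 CPM over all nuclei, with the LPS libraries on either side of the female control. Its log2 fold change was 0.22 (standard error, SE, 0.65, edgeR adjusted p = 1.00). CD14 was at 2.15, 1.14, 2.27 and 1.45 CPM, which separated the sexes and not the groups (log2 fold change 0.16, SE 0.68). In barcodes of at most 100 UMIs CD14 was at 7.52, 0, 18.4 and 0 CPM, above its level in nuclei in both female libraries. The granule lineage, which is neuronal, held 42.6% of its UMIs at 1.13 CPM. MYD88 was at 1.12, 1.39, 1.07 and 0.636 CPM, with the lowest value in the male LPS library and a log2 fold change of -0.53 (SE 0.69). It was at 4.10, 3.60, 4.01 and 2.23 CPM in barcodes of at most 100 UMIs, on 6, 3, 5 and 3 UMIs. TRAF6 was at 16.9, 17.9, 19.7 and 13.4 CPM, so that the LPS libraries enclosed the controls (log2 fold change -0.06, SE 0.34). NLRP3 was at 1.07, 2.29, 1.82 and 0.818 CPM, with the lowest value in the male LPS library and the highest in the male control.

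Among the NF-kB genes, NFKB1 had the smallest spread, at 63.0, 72.1, 70.5 and 79.0 CPM, with a log2 fold change of 0.16 (SE 0.26). RELA was at 12.8, 25.3, 12.9 and 18.6 CPM, both male libraries above both female ones, with a log2 fold change of -0.24 (SE 0.43). RELB, of the non-canonical route, was at 8.91, 18.3, 9.95 and 6.68 CPM, and NFKB2, its partner, at 1.10, 3.83, 1.30 and 1.45 CPM. For both genes the male control library stood above the other 3, and the log2 fold changes were -0.67 (SE 0.47) and -0.77 (SE 0.76). Without that library they were -0.15 and 0.28. NFKBIA, NFKBIZ and TNFAIP3 are all induced by NF-kB itself. NFKBIA was at 7.37, 7.75, 7.72 and 9.72 CPM (log2 fold change 0.22, SE 0.37), NFKBIZ at 4.37, 8.90, 4.93 and 7.49 CPM and TNFAIP3 at 1.89, 2.83, 1.75 and 2.41 CPM. All 3 were higher in both male libraries than in both female ones, for NFKBIA by a narrow margin. SOD2, an NF-kB target, was at 12, 8.10, 12.6 and 9.40 CPM, with the female libraries higher, and at 32.1, 14.4, 43.3 and 13.4 CPM in barcodes of at most 100 UMIs. ICAM1, another target, was at 0.812, 1.49, 1.07 and 0.50 CPM.

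Among the receptors and their signalling chains, the LIF and oncostatin M receptors gave the smallest p-values in all nuclei. LIFR was at 47.3, 88.6, 38.3 and 43.3 CPM, lower in both LPS libraries than in either control, with a log2 fold change of -0.70 (SE 0.36, unadjusted p = 0.112, edgeR adjusted p = 1.00). OSMR was at 7.59, 16.3, 7.42 and 5.41 CPM, nearly level between the females and far apart between the males, with a log2 fold change of -0.85 (SE 0.48, unadjusted p = 0.135, edgeR adjusted p = 1.00). Markers of astroglia and endothelium were themselves lowest in the male LPS library, at 1829 CPM summed over 8 Bergmann glia markers against 2409 to 2711 CPM in the others, and at 168 CPM summed over 13 endothelial markers against 232 to 301 CPM. Summed over 10 fibroblast markers the libraries were at 275, 573, 349.6 and 157 CPM. The part of these markers in the values of LIFR and OSMR was not tested. Without the male control the log2 fold changes were -0.26 for LIFR and -0.29 for OSMR. In astroglia alone they were -0.55 (SE 0.32) for LIFR and -0.60 (SE 0.38) for OSMR. LIFR was at 270.3, 392, 177 and 276 CPM in astroglia, lower in the LPS library within each sex. With sex as a block its log2 fold change there was -0.57 (unadjusted p = 0.0123, edgeR adjusted p = 1.00). This p was the smallest of the 122 values of the 36 genes over the 7 comparisons with this block. Of the 122, 3 had an unadjusted p under 0.05 with the block in edgeR and 0 without it. Without any effect a share of about 0.05 would be expected. The share of all tested genes with the block was not counted.

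IL6ST was at 17.9, 31.3, 17.2 and 26.6 CPM, STAT3 at 75.3, 152, 81.1 and 106 CPM and JAK2 at 61.4, 85.2, 57.5 and 81.2 CPM. In each of these 3 the male libraries were above the female ones, and the log2 fold changes were -0.13 (SE 0.41), -0.24 (SE 0.39) and -0.05 (SE 0.32). IFNAR1 was at 32.2, 52.1, 32.0 and 41.8 CPM and IFNGR1 at 30.8, 38.9, 39.5 and 34.2 CPM, with log2 fold changes of -0.16 (SE 0.34) and 0.10 (SE 0.28). IRF1 was at 0.702, 1.94, 0.551 and 1.09 CPM and IRF8 at 1.36, 2.29, 1.95 and 1.45 CPM. TGFB1 was at 11.8, 23.7, 12.2 and 16.0 CPM, with a log2 fold change of -0.29 (SE 0.42). IL6R was nearly level, at 1.91, 2.19, 1.98 and 1.77 CPM. IL10RA was at 3.05, 1.44, 3.37 and 1.09 CPM, higher in both female libraries, and IL1RAP at 14.4, 10.5, 10.4 and 13 CPM, with no order by group or sex.

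**Figure D4:**
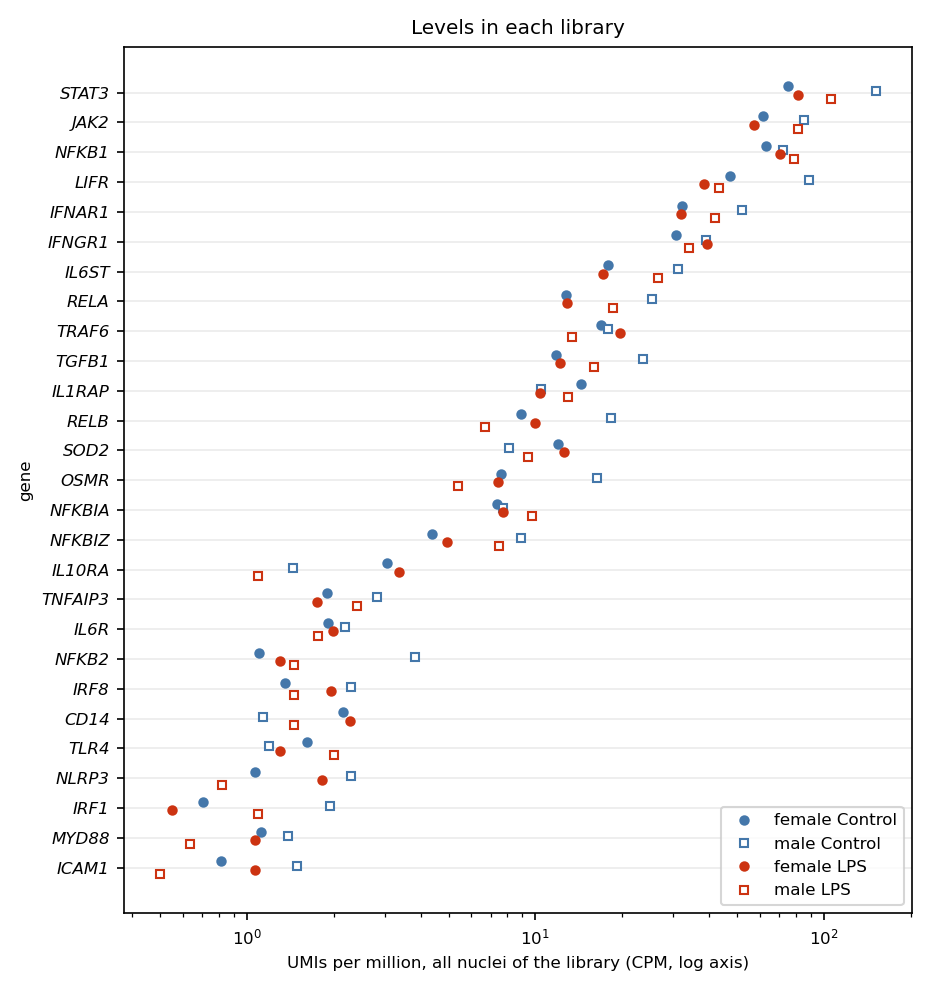
Level in each library (CPM over all nuclei, log axis) of the 27 genes with at least 100 UMIs summed over the 4 libraries, with filled circles for female, open squares for male, blue for control and red for LPS. For STAT3, JAK2, IFNAR1, IL6ST, RELA and TGFB1 both male points lie to the right of both female points.

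The sexes, which differ in depth as given above, separated more genes than exposure did. Both male libraries were above both female libraries for 12 of the 29 tested genes (37.6% of all tested genes): NFKB1, NFKB2, RELA, NFKBIA, NFKBIZ, TNFAIP3, IL6ST, STAT3, JAK2, IRF1, IFNAR1 and TGFB1. They were below them for 4 (30.1% of all tested genes): TLR2, CD14, IL10RA and SOD2. The 16 genes that separated the sexes were thus a smaller share of the 29 than of all tested genes. Within the granule lineage alone, 9 of 24 tested genes were higher in both male libraries (37.7% of all genes tested there) and 2 were lower (30.6%).

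The LPS libraries were also set against the control library of the same sex. Within females 19 of the 29 genes were higher in the LPS library, as were 60.2% of all tested genes. Within males 23 of the 29 were lower in the LPS library, as were 58.7% of all tested genes. Counting intervals lay on opposite sides of 0 in the 2 sexes for 5 of the 27 genes with at least 100 UMIs and for 20.6% of all genes with that many. With 1 library per arm there is no test of these values, and the intervals are exact binomial 95% intervals for counting error only. STAT3 had a log2 ratio of 0.11 (0.03 to 0.18) in females and -0.52 (-0.60 to -0.45) in males. RELB had 0.16 (-0.06 to 0.38) and -1.45 (-1.74 to -1.17), and NLRP3 0.76 (0.18 to 1.34) and -1.48 (-2.36 to -0.67). LIFR was lower in LPS in both, with -0.30 (-0.41 to -0.20) in females and -1.03 (-1.15 to -0.92) in males. NFKB1 was higher in both, with 0.16 (0.08 to 0.24) and 0.13 (0.03 to 0.23).

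**Figure D5:**
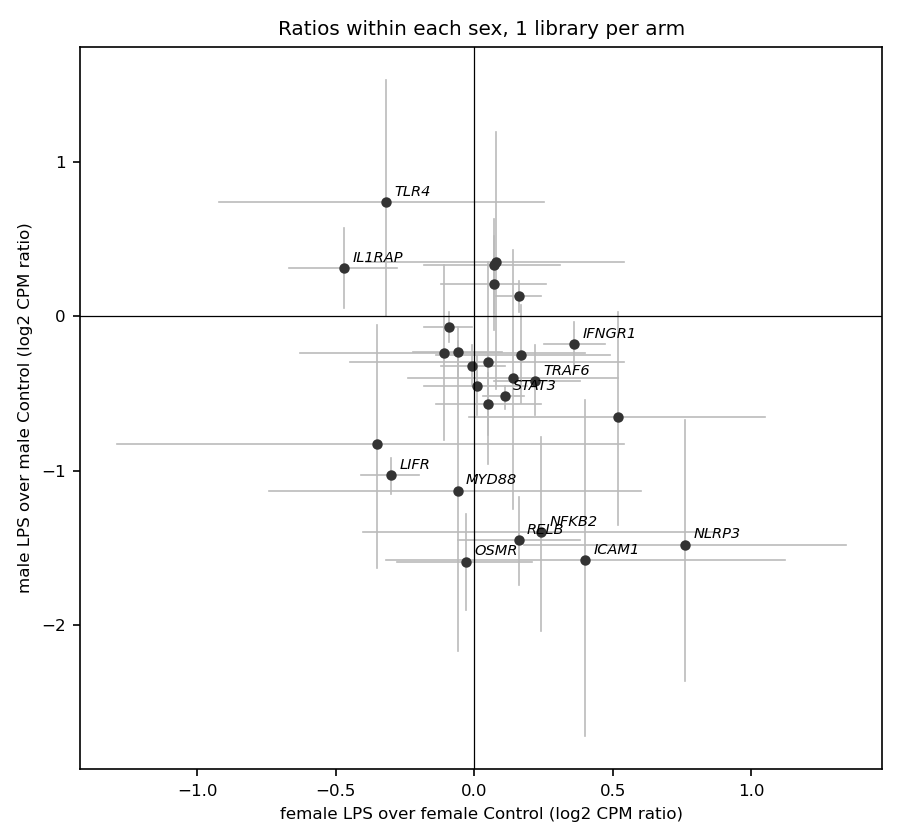
Log2 ratio of LPS to control CPM over all nuclei within females (x axis) and within males (y axis) for the 27 genes with at least 100 UMIs summed over the 4 libraries, with exact binomial 95% intervals for counting error as grey lines. NLRP3 is at 0.76 and -1.48 and IL1RAP at -0.47 and 0.31, on opposite sides of 0 in the 2 sexes, while LIFR is below 0 in both.

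Microglia, the class with the highest level of the LPS receptor gene TLR4, were compared next. In their sums 13 of the 36 genes passed the filter and none was called, nor was any of the 5420 genes tested (0%), with 58 (1.07%) at an unadjusted p under 0.05 in edgeR and 46 in DESeq2, which called none. TLR4 was at 100.2, 62.2, 105 and 109 CPM in microglia and was the 1 gene of the 13 above both controls in both LPS libraries (8.93% of the genes tested there). Its log2 fold change was 0.44 (SE 0.46, edgeR adjusted p = 1.00), on 33, 13, 28 and 20 UMIs. STAT3 was at 185, 306, 143 and 119 CPM, with a log2 fold change of -0.83 (SE 0.45, unadjusted p = 0.112, edgeR adjusted p = 1.00). TGFB1 and IL6R also lay below both controls in both LPS libraries (14.8% of the genes tested there), by narrow margins. TGFB1 was at 352, 235, 226 and 228 CPM and IL6R at 152, 110.1, 97.8 and 109 CPM. IRF8 was at 121, 168, 139 and 130.2 CPM (log2 fold change -0.03, SE 0.41), IFNGR1 at 282, 192, 308 and 184 CPM and JAK2 at 358, 287, 384 and 244 CPM, the last 2 with both females above both males. CD14 was at 97.1, 43.1, 124 and 10.9 CPM, the last from 2 UMIs, and NLRP3 at 72.8, 115, 105 and 32.6 CPM, the last from 6. The LPS libraries were the highest and the lowest for CD14. Without the female LPS library, 174 genes were called in microglia, and without the male LPS library 10, none of them among the 36.

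In endothelial cells 12 of the 36 genes passed the filter, none was called and none of 5601 genes was (0%), with 54 (0.964%) at an unadjusted p under 0.05 in edgeR and 33 in DESeq2, which called none. RELB had the smallest p of any of the 36 genes in the 7 comparisons, with a log2 fold change of -1.58 (SE 0.70, unadjusted p = 0.0585, edgeR adjusted p = 1.00) on 24, 17, 8 and 1 UMIs. NFKBIA (-0.98, SE 0.70), IFNAR1 (-0.47, SE 0.37) and TGFB1 (-0.41, SE 0.46) also lay below both controls in both LPS libraries (14.1% of the genes tested there), and LIFR (0.46, SE 0.47) above them (8.77%). The margins were narrow for TGFB1, at 92.2, 88.6, 54.4 and 85.8 CPM, and for LIFR, at 84.5, 56.0, 103 and 85.8 CPM. The male LPS library had 28 endothelial nuclei with 93250 UMIs. Without it 26 genes were called in endothelial cells, and without the female control 72, none of them among the 36.

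In astroglia 20 of the 36 genes passed and none was called, nor was any of 12264 genes (0%), with 40 (0.326%) at an unadjusted p under 0.05 in edgeR and 50 in DESeq2, which called none. NFKBIA had the highest log2 fold change, 1.02 (SE 0.56, edgeR adjusted p = 1.00), and was above both controls in both LPS libraries (8.87% of the genes tested there), which is the opposite sign of its value in endothelial cells. The difference between these classes was not tested. RELB (-0.56, SE 0.41) was below both controls (6.90%). In the granule lineage 24 of the 36 genes passed, and log2 fold changes ranged from -0.91 for NFKB2 to 0.49 for ICAM1. None of the 24 and none of 14911 genes was called (0%), with 29 (0.194%) at an unadjusted p under 0.05 in edgeR and 59 in DESeq2, which called none. NFKB1 and NFKBIA lay above both controls in both LPS libraries (7.20% of the genes tested there) and MYD88 and TNFAIP3 below them (4.97%). NFKBIA was nearly level, at 6.68, 6.61, 6.90 and 7.10 CPM (log2 fold change 0.07, SE 0.40). NFKB1 was at 59.6, 63.8, 65.7 and 83.9 CPM. The male LPS library had its granule nuclei spread differently over the clusters: the one with the leading genes RAB37, PTK2B and GABRB2 held 583, 552, 377 and 1450 of the 6813, 6066, 5124 and 4375 granule nuclei, and the part of this in the values was not tested.

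In the oligodendrocyte lineage 11 of the 36 genes passed, with log2 fold changes from -0.54 for JAK2 to 0.50 for IFNGR1. None was called, and none of 8086 genes was (0%), with 81 (1.00%) at an unadjusted p under 0.05 in edgeR and 42 in DESeq2, which called 1 gene that is not among the 36. In fibroblasts 13 passed, from -1.29 (SE 0.69) for RELB to 0.75 (SE 0.48) for LIFR. None was called, and none of 8610 genes was (0%), with 157 (1.82%) at an unadjusted p under 0.05 in edgeR and 95 in DESeq2, which called 5 genes, none of the 36. Leaving out 1 library or adding sex as a block gave 5 to 30 calls in the oligodendrocyte lineage, and leaving out 1 library gave up to 161 in fibroblasts, again none of the 36. RELB had a negative log2 fold change in astroglia, endothelial cells, the granule lineage and fibroblasts, the 4 classes in which it was tested, and the male control library was the highest in each.

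Of 99 other genes of the same pathways 90 were found in the gene list and 72 passed the filter in all nuclei. None was called or had an unadjusted p under 0.05 in edgeR, 31 log2 fold changes were positive and 41 negative, and their median was -0.04. Among the lowest were MX1 (-1.76, SE 1.06), an antiviral protein induced by interferon, and NLRC4 (-1.12, SE 0.88), an inflammasome adaptor. The highest were IRAK2 (0.79, SE 0.46), a kinase of Toll-like receptor signalling, C3 (0.79, SE 0.57), the central complement component, and REL (0.77, SE 0.56), an NF-kB subunit. The edgeR adjusted p of these 5 was 1.00.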

How the data were processed

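The deposited values are UMI counts per gene and barcode for all barcodes. The authors made them with Cell Ranger (5.0 per the labels' protocol, 4 in the submitters' processing notes), mapping to Mmul_8.0.1 with introns included, and did not normalize them. Their SoupX step is not in these counts, and no free RNA was subtracted here. Sequences and coordinates are not given here, as the reference tables are of another build.

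Barcodes with at least 500 genes were used. Clusters came from anchor integration in Seurat 5.3.0 (R 4.3.3) with 2000 variable features, leaving out the 36 genes, 30 dimensions and resolution 0.5, and were named from fixed marker lists, with at least 3 markers raised. Clusters of over 50% Scrublet doublets (scanpy 1.11.5), or of low UMI number without their own markers among the leading genes, stayed unnamed. Doublets were otherwise kept. Where Scrublet's own threshold marked almost no barcodes, in the 2 male libraries, the median of the other thresholds was used.

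Counts were summed per fetus, the replicate, and tested in edgeR 4.0.16 (filterByExpr, TMM, quasi-likelihood, Benjamini-Hochberg over all genes tested). The script was tested on data simulated with the same spread for every gene and no difference between the sexes. Of genes changed by a log2 of 1 in either direction it called 25.4% of 59 in all nuclei and 28.3% of 60 in microglia. For a log2 of 2 it called 95.3% and 85.7%. Recovery in the deposited libraries was not measured. Alternatives were DESeq2 1.42.0 (with NA adjusted p-values kept as NA), its size factors, no filter, sex as a block, other barcode sets, resolution 1 and leaving out each library. P-values measure the spread between 2 fetuses per group, a female and a male. Without the sex block that spread includes the differences of sex and depth. A two-sided exact permutation test could not go below 0.333, so none was used. All members are named, those with at least 100 UMIs with the value of each library, and of other pathway genes the 3 highest and 3 lowest, as none was called; 1 of these is not reported here. The members, lists and comparisons were chosen with earlier results of these data known.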

Additional observations from a re-analysis of the deposited data

Results flagged for a closer look

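For 5 genes the ratio of LPS to control over all nuclei pointed in opposite directions in the 2 sexes, with both exact binomial 95% counting intervals on their own side of 0. They are 5 of the 27 genes with at least 100 UMIs, and 20.6% of all 14355 genes with that many met the same criterion, so the share of the 27 is near the background. The difference between the sexes was not tested, since each sex has 1 library per arm. The log2 ratio was 0.22 in females and -0.42 in males for TRAF6, 0.11 and -0.52 for STAT3, 0.36 and -0.18 for IFNGR1 and 0.76 and -1.48 for NLRP3. IL1RAP went the other way, with -0.47 in females and 0.31 in males. The male and female libraries also differ in depth, and the male LPS library holds most of the barcodes without a class name, and the part of these in the 5 values was not tested. Groups of 2 libraries are too small to test for a single outlying sample.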

How the results depend on the processing

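No member was called in any of the 84 combinations of the 7 comparisons with the alternatives that could be run. The number of all genes called did change, from 0 in the reported tests. Without the filter on low counts it was 4 in microglia, 11 in endothelial cells, 11 in astroglia, 10 in the oligodendrocyte lineage and 38 in fibroblasts. DESeq2 called 1 in the oligodendrocyte lineage and 5 in fibroblasts, and sex as a block 30 in the oligodendrocyte lineage. Leaving out 1 library gave 0 to 174 in microglia (174 without the female LPS library, 10 without the male LPS library), 0 to 72 in endothelial cells (72 without the female control, 26 without the male LPS), 0 to 2 in astroglia (2 without the male LPS), 5 to 17 in the oligodendrocyte lineage (14, 17, 5 and 11 without the female control, male control, female LPS and male LPS) and 0 to 161 in fibroblasts (161, 28 and 14 without the female control, male control and male LPS). In these fits the lone library of a group is assumed to vary like the others, and the cause was not tested. The smallest adjusted p of a member was then 0.112, for NFKBIZ in fibroblasts without the female control. Leaving the barcodes without a class name out of the sums of all nuclei, an alternative chosen after seeing the data, kept the log2 fold changes of LIFR at -0.71 and OSMR at -0.87.

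Of 502 values of 42 fold changes under alternatives, 21 had the opposite sign, each after leaving out a library. Over the 4 fits that each leave out a library, the log2 fold change over all nuclei ranged from -0.13 to 0.56 for TLR4, -0.26 to 0.80 for CD14, -0.36 to 0.19 for TRAF6, -0.59 to 0.25 for RELA, -0.49 to 0.24 for IL6ST, -0.60 to 0.26 for STAT3, -0.33 to 0.18 for JAK2, -0.65 to 0.21 for TGFB1, 0.00 to 0.21 for IFNGR1, -0.40 to 0.15 for IFNAR1, -1.38 to 0.28 for NFKB2 and -2.56 to 0.17 for MX1. It ranged from -0.23 to 0.18 for IRF8 in microglia, -1.66 to 0.64 for NFKB2 in the granule lineage and -0.25 to 1.19 for LIFR in fibroblasts. Of the values that kept their sign in these fits most moved by over 1.5 times under at least 1 of them. Over all nuclei they were -0.95 to -0.21 for MYD88, 0.07 to 0.25 for NFKB1, -1.04 to -0.15 for RELB, 0.04 to 0.38 for NFKBIA, -1.02 to -0.26 for LIFR, -1.24 to -0.29 for OSMR and -2.31 to -0.31 for VCAM1. In endothelial cells RELB ranged from -2.50 to -1.22 and NFKBIA from -2.64 to -0.48, in astroglia LIFR from -0.85 to -0.32 and NFKBIA from 0.49 to 1.41, and in microglia TLR4 from 0.12 to 0.85 and STAT3 from -1.14 to -0.47. With a library left out in the same way, the number of genes highest in a class was 1 to 3 for Purkinje cells, 1 to 2 for Bergmann glia and 1 to 2 for fibroblasts. For the granule lineage it was 0 to 1, and the 1 is a tie at 0 UMIs. TNF has no UMI in any class without the female control, nor SOCS3 without the male control. The number stayed within 1.5 times of the reported one for microglia and endothelial cells. Without the male control, however, PTGS2 and SOCS3 have no endothelial UMI and IRF1 has 1. Depth limits TNF, SOCS3, IL1B, IL6, CCL2 and PTGS2, which have 1 to 34 UMIs in all.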
